A study of Mus musculus with 17 samples.

Results

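The 10 genes described here are those by which mouse macrophages are commonly recognised, together with receptors that such cells use to take up particles, dying cells and microbial products: Marco, Msr1, Mrc1, Siglec1, Cd68, Mertk, Timd4, Fcgr1, Cd14 and Adgre1. They were listed by name, with no threshold on a measured value, and their symbols were matched to the Ensembl gene identifiers of the count tables, in which all 10 were present among 41388 genes. The libraries came from bone marrow macrophages (BMMs), which M-CSF raises from marrow in culture, and from preosteoclasts (preOCs), the same kind of cell after 24 h with RANKL at 100 ng/ml beside M-CSF. Bap1LysM cells carried floxed Bap1 alleles and a Cre recombinase driven by the lysozyme M gene, which is active in myeloid cells at large and not in osteoclasts alone, and Bap1flox cells came from littermates with the floxed alleles and no Cre. Poly(A) RNA was sequenced from 3 Bap1flox BMM, 3 Bap1LysM BMM, 6 Bap1flox preOC and 5 Bap1LysM preOC libraries, the last group having no number 3. The preOCs were from 20-week-old male mice, and the age of the mice behind the BMM libraries is not given in the sources used here. The study describes the preOC libraries as biologically independent samples. For the BMM libraries the sources used here do not say whether those of a group came from separate mice, so that p-values there measure the spread between these libraries.

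Macrophages of the marrow lineage are maintained by M-CSF, and they carry surface receptors that bind modified lipoproteins, bacterial walls, mannose-rich sugars, sialic acid, antibody and the phosphatidylserine of dying cells. RANKL turns the same precursors towards osteoclasts, the multinucleated cells that degrade bone, and part of the macrophage programme is lost on the way. BAP1 is a deubiquitinase that removes ubiquitin from histone H2A, and the comparisons set these genes in Bap1LysM cells beside Bap1flox cells before and after RANKL.

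Levels are given as CPM, the count of a gene scaled to its library's total count, and these totals lay between 37967542 and 61369441. Libraries 4 to 6, all preOCs, stood apart from libraries 1 to 3: mitochondrial genes took 2.36 to 5.26% of their counts against 0.481 to 1.07%, and their deposited tables are named in another form. Lyz2, the gene that holds the Cre, was at 0.146 to 0.436% of the Bap1flox mean in 6 Bap1LysM libraries, but at 42.8% in the library labelled Bap1LysM BMM 1 and 75.1% in the library labelled Bap1LysM preOC 1. The study's methods give the Cre as heterozygous, which leaves an intact Lyz2 allele, so that it is the 6 libraries near 0 that depart from the stated genotype. The Cre genotype of the libraries was not tested, and the members' genotype and RANKL comparisons that use the 2 Bap1LysM libraries numbered 1 are given with and without them. Bap1 counts over the whole gene, which do not isolate the deleted exons, were at 64.3 to 101% of the Bap1flox mean. Bap1 deletion, the Cre and the lower Lyz2 go together in Bap1LysM cells, and their parts in a genotype difference cannot be told apart here. All 10 macrophage markers of a list with Csf1r, Itgam and Spi1 had a mean above 1 CPM in all 4 groups, and without Lyz2 they summed to 8147 to 10394 CPM in BMMs and 5091 to 6672 CPM in preOCs. A list of 10 osteoclast markers summed to 230.5 to 351.6 CPM in BMM libraries and 5917 to 17563 CPM in preOC libraries.

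Promoter sequence is shown for Marco and Mertk, the members that differed between genotypes in preOCs, for Mrc1, which fell most with RANKL, and for Fcgr1, whose highest BMM and highest preOC library were also the highest for a list of interferon response genes. Each is the 250 bases before the RefSeq start in GRCm38.p6, 5′ to 3′ on the gene's strand, and capitals mark matches on either strand to GAGGAA, the core bound by PU.1.
Marco (chr1:120505025-120505274, minus strand): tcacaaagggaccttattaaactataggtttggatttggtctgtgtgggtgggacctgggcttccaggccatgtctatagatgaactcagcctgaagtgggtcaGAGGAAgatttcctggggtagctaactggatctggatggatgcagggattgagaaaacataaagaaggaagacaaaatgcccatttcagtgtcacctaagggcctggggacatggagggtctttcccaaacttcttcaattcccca
Mertk (chr2:128698665-128698914, plus strand): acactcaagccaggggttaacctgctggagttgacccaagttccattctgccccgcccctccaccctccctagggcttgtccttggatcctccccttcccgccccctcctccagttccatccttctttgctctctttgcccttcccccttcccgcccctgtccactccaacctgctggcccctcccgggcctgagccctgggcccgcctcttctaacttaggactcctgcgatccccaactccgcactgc
Mrc1 (chr2:14229164-14229413, plus strand): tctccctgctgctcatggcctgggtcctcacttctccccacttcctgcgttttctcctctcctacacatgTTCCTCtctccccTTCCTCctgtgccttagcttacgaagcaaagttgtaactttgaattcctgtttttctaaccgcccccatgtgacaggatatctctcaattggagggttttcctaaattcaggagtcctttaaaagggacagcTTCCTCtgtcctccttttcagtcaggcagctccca
Fcgr1 (chr3:96293970-96294219, minus strand): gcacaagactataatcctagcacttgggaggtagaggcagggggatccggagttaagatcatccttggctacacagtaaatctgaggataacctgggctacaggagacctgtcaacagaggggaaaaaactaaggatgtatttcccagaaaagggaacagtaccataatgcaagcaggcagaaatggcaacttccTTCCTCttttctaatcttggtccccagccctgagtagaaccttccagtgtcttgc
Of the 6 members with an entry in the promoter table (these 4, Cd68 and Timd4), 4 held the PU.1 letters, Mrc1 with 3 matches and Marco, Fcgr1 and Cd68 with 1 each, as did 23.3% of 32851 mouse promoters of the same length. Of the other letters searched on both strands, the interferon-stimulated response element core GAAANNGAA (7.13% of all promoters) and the MAF motif TGCTGAC (3.81%) were found in Timd4 alone, the AP-1 motif TGANTCA (6.75%) and the C/EBP motif TTGCNNAA (9.56%) in Cd68 alone, and the E-box CACGTG bound by MITF (6.02%) in none. Adgre1, Msr1, Siglec1 and Cd14 had no entry.

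Levels of different genes can be compared only per length, as RPKM, the CPM per kilobase of the gene's length. Cd68, which encodes a heavily glycosylated protein of late endosomes and lysosomes, stood highest of the 10 in every group, with a mean of 1299 RPKM in Bap1flox BMMs (SD 79.9, n = 3) and 1133 RPKM in Bap1flox preOCs (SD 83.2, n = 6). Adgre1, which encodes the F4/80 antigen, was in the second place in each group and fell from a mean of 523 RPKM to 146.5 RPKM. In Bap1flox BMMs Mrc1 (337 RPKM), Siglec1 (137 RPKM) and Cd14 (101 RPKM) followed, and each was separated from the next by more than the range of the libraries, whereas Marco, Mertk, Fcgr1 and Msr1 lay between 34.1 and 47.5 RPKM and the ranges of Marco and Mertk, and of Fcgr1 and Msr1, overlapped. The order below Adgre1 was another in Bap1flox preOCs, where Msr1 (60.0 RPKM) and Cd14 (45.9 RPKM) led Mrc1 (33.6 RPKM), Siglec1 (22.3 RPKM), Mertk (8.52 RPKM), Fcgr1 (5.70 RPKM) and Marco (5.21 RPKM), with overlapping ranges between each of these neighbours. Among genes with a mean above 1 CPM, Cd68 ranked 22nd and Fcgr1 1538th of 12748 in Bap1flox BMMs, and 32nd and 7312th of 12689 in Bap1flox preOCs.

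**Figure D1:**
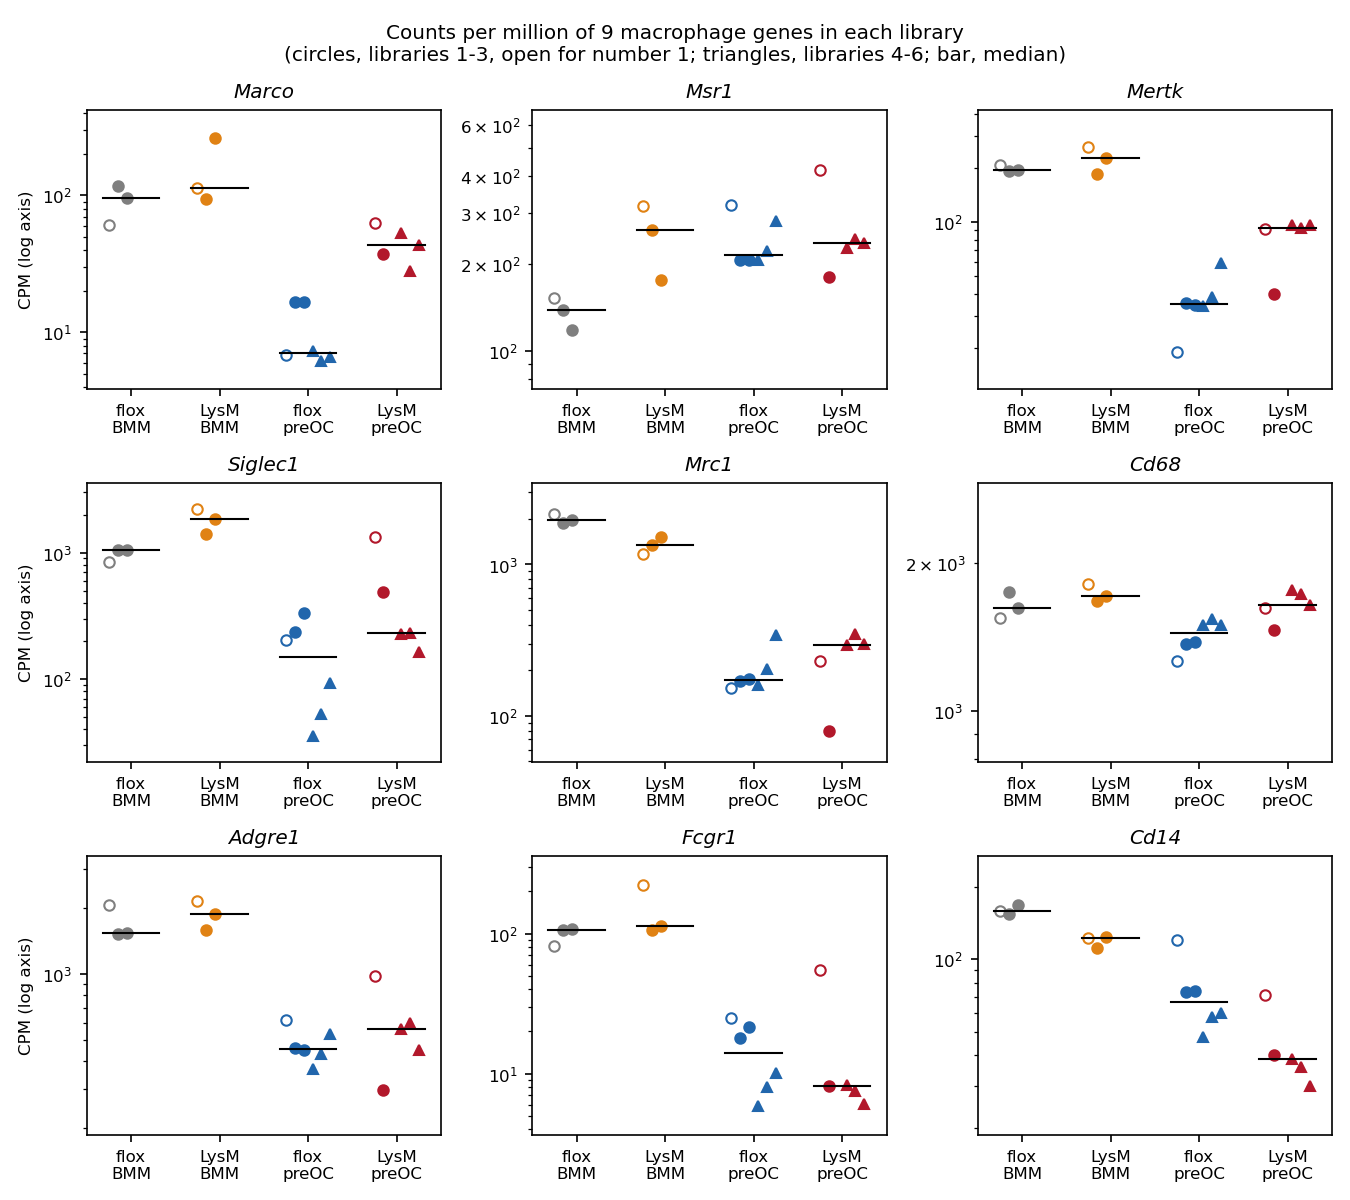
CPM on a log axis of 9 genes in the 17 libraries, by group (circles, libraries 1 to 3, open for number 1; triangles, libraries 4 to 6; bar, group median). Every Bap1LysM preOC library lies above every Bap1flox preOC library for Marco, while for Mrc1 and Fcgr1 the preOC groups overlap.

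In preOCs, Marco and Mertk were higher in Bap1LysM than in Bap1flox cells, and they were the only members called in the fit over all 11 libraries. With edgeR's quasi-likelihood test and Benjamini-Hochberg adjustment over 12929 genes, 2 of the 9 members tested were called higher and 0 lower, where 7.12% of all genes were called higher and 8.68% lower. Timd4 did not pass the filter on low counts. The median log2 fold change of the 9 members was 0.37, against -0.01 for all genes tested. In these bulk libraries fewer cells that express a gene and less of its RNA per cell cannot be told apart.

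Marco (ENSMUSG00000026390, GRCm38 chr1:120474538-120505024, minus strand) encodes a class A scavenger receptor that binds bacteria and inhaled particles. In Bap1flox preOCs it ran from 6.14 CPM through a median of 7.07 CPM to 16.7 CPM over the 6 libraries. Bap1LysM preOC 1, 2, 4, 5 and 6 held it at 62.8, 37.2, 52.8, 28.2 and 43.5 CPM. The groups did not overlap, and the lowest Bap1LysM library was above the highest Bap1flox library. The log2 fold change was 2.26 (SE 0.32, edgeR adjusted p = 0.0012), a 4.79-fold difference. With any 1 library left out Marco was still called (11 fits), at log2 fold changes from 2.10 to 2.46. The lowest of these, 2.10 (edgeR adjusted p = 0.0012), came without Bap1LysM preOC 1. In that fit 3 of the 9 members were called, Marco and Mertk higher and Cd14 lower, beside 10.7% of all genes called higher and 13.3% lower.

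Mertk (ENSMUSG00000014361, GRCm38 chr2:128698956-128802894, plus strand) encodes a receptor tyrosine kinase that recognises dying cells through the bridging proteins GAS6 and protein S. It ranged in Bap1flox preOCs from 18.9 CPM through a median of 35.2 CPM to 59.7 CPM. Bap1LysM preOC 1, 2, 4, 5 and 6 had Mertk at 91.5, 39.7, 96.8, 92.5 and 96.7 CPM. Library 2 alone lay within the Bap1flox range, and the other 4 lay above it. The log2 fold change was 1.26 (SE 0.30, edgeR adjusted p = 0.016), or 2.39-fold, and 1.12 to 1.47 with 1 library left out, with a call in all 11 such fits. The call without Bap1LysM preOC 4 was close to the threshold, at an edgeR adjusted p of 0.045, and without Bap1LysM preOC 1 the log2 fold change was 1.22 (edgeR adjusted p = 0.021).

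Msr1 (ENSMUSG00000025044, GRCm38 chr8:39581700-39642678, minus strand), also a class A scavenger receptor and a receptor for modified lipoproteins, was not called. Its Bap1flox preOC libraries ran from 206.1 CPM through a median of 213.5 CPM to 318.9 CPM, against 421.6, 180.4, 225.7, 242.8 and 235.2 CPM in the Bap1LysM libraries. The high library was Bap1LysM preOC 1, and the groups overlapped. The log2 fold change was 0.21 (SE 0.22, edgeR adjusted p = 0.55), and -0.04 without that library.

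Siglec1 (ENSMUSG00000027322, GRCm38 chr2:131069220-131086765, minus strand) encodes CD169, a sialic acid-binding receptor of macrophages and a well-known interferon-inducible gene. Its level differed between the library sets within each genotype: 204.4, 235.8 and 334.3 CPM in Bap1flox preOC 1 to 3 but 35.2, 52.8 and 93.7 CPM in 4 to 6. The Bap1LysM libraries were at 1318 and 488.6 CPM (1 and 2) and at 225.8, 230.1 and 163.9 CPM (4 to 6). Within each set every Bap1LysM library was above every Bap1flox library, whereas across sets they overlapped. Over all libraries the log2 fold change was 1.72 (SE 0.66, edgeR adjusted p = 0.099), and with the library set as a term it was 1.87 (SE 0.30, edgeR adjusted p = 0.0010), or 3.65-fold. Without the library labelled Bap1LysM preOC 1 the value over all libraries was 0.87 (edgeR adjusted p = 0.27), while with the set as a term and that library left out, an alternative added after the data had been seen, it was 1.55 (edgeR adjusted p = 0.0015).

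Cd14 (ENSMUSG00000051439), the co-receptor that hands bacterial lipopolysaccharide to TLR4, was the only member whose preOC estimate lay well below 0. It was at 120.5, 73.4 and 73.7 CPM in Bap1flox preOC 1 to 3 and at 47.6, 57.5 and 60.0 CPM in 4 to 6. The Bap1LysM libraries were at 71.3 and 40.0 CPM (1 and 2) and at 38.7, 35.8 and 30.0 CPM (4 to 6). Within each set every Bap1LysM library was below every Bap1flox library. The log2 fold change was -0.65 (SE 0.26, edgeR adjusted p = 0.11) over all libraries, -0.59 (SE 0.19, edgeR adjusted p = 0.031) with the set as a term, and -0.92 (edgeR adjusted p = 0.012) without Bap1LysM preOC 1.

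Cd68 (ENSMUSG00000018774, GRCm38 chr11:69664213-69666153, minus strand) differed little in size. Bap1flox preOCs ran from 1260.3 CPM through a median of 1438 CPM to 1539 CPM, and the Bap1LysM libraries 1, 2, 4, 5 and 6 were at 1618, 1459.6, 1763, 1723 and 1642 CPM. Of the 5 Bap1LysM libraries 4 were above all Bap1flox libraries. The log2 fold change was 0.29 (SE 0.10, edgeR adjusted p = 0.085), 0.26 (SE 0.07, edgeR adjusted p = 0.013) with the set as a term, and 0.28 (edgeR adjusted p = 0.080) without Bap1LysM preOC 1.

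For Adgre1, Mrc1 and Fcgr1 the preOC groups overlapped, and none was called with or without the set term. Adgre1 (ENSMUSG00000004730, GRCm38 chr17:57358686-57483529, plus strand), an adhesion receptor and the most used surface marker of mouse macrophages, ran from 367.6 through a median of 452.9 to 615.4 CPM in Bap1flox preOCs and was at 981.7, 295.8, 562.4, 595.3 and 448.7 CPM in Bap1LysM preOCs (log2 fold change 0.37, SE 0.26, edgeR adjusted p = 0.37). Mrc1 (ENSMUSG00000026712, GRCm38 chr2:14229414-14332057, plus strand), the mannose receptor, ran from 152.2 through 171.8 to 341 CPM and was at 231.7, 79.3, 293.4, 347.7 and 300.6 CPM (log2 fold change 0.41, SE 0.35, edgeR adjusted p = 0.46). Fcgr1 (ENSMUSG00000015947, GRCm38 chr3:96282909-96293969, minus strand), the high-affinity receptor for IgG, ran from 5.83 through 14.1 to 24.9 CPM and was at 54.7, 8.22, 8.28, 7.48 and 6.04 CPM (log2 fold change 0.32, SE 0.61, edgeR adjusted p = 0.76). Bap1LysM preOC 1 was the highest library for Fcgr1 and Adgre1, and without it their log2 fold changes were -0.89 (edgeR adjusted p = 0.10) and 0.08 (edgeR adjusted p = 0.79), while Mrc1 was at 0.43 (edgeR adjusted p = 0.43). Weighting the libraries by quality with limma's voom, the test named in the study's methods, called Mrc1 higher at 0.81 (limma adjusted p = 0.0092) and Adgre1 at 0.39 (limma adjusted p = 0.035).

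**Figure D2:**
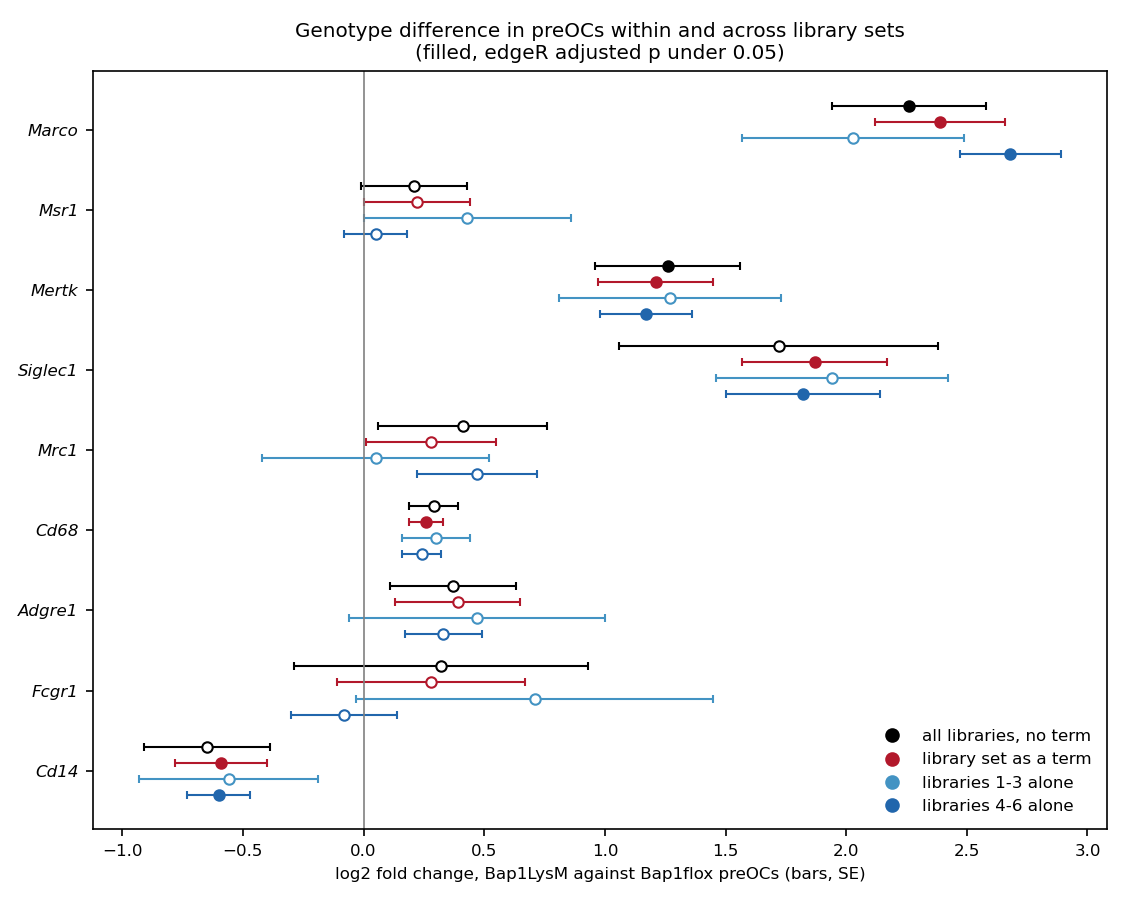
Log2 fold change of Bap1LysM against Bap1flox preOCs for 9 genes (points, estimates; bars, SE; filled, edgeR adjusted p under 0.05) over all libraries, with the library set as a term, and within each set. Marco, Mertk, Siglec1 and Cd14 lie on the same side of 0 in each fit, at 2.03, 1.27, 1.94 and -0.56 in libraries 1 to 3 and 2.68, 1.17, 1.82 and -0.60 in libraries 4 to 6.

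Within the sets, libraries 1 to 3 alone (3 Bap1flox and 2 Bap1LysM) gave calls for 0 of the 9 members and for 0 of 13129 genes with edgeR, of which 2336 had an unadjusted p under 0.05, among them Marco, Siglec1 and Mertk. Libraries 4 to 6 alone called Marco (log2 fold change 2.68, edgeR adjusted p = 9.3e-05), Mertk (1.17, edgeR adjusted p = 0.0023), Siglec1 (1.82, edgeR adjusted p = 0.0031) and Cd14 (-0.60, edgeR adjusted p = 0.0075), while Fcgr1 was at -0.08, and 15.8% of all genes were called higher and 18% lower there. With the set as a term 5 of the 9 were called, 4 higher (Marco, Mertk, Siglec1, Cd68) and Cd14 lower, beside 16.6% of all genes called higher and 17% called lower. With the replicate number as a block the same 5 were called, among them Siglec1 (1.95, edgeR adjusted p = 0.0052), Cd68 (0.27, edgeR adjusted p = 0.039) and Cd14 (-0.65, edgeR adjusted p = 0.0051), beside 16.1% of all genes called higher and 16.7% lower. Over all genes the set term raised the calls from 2043 to 4349.

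Markers of other cells also differed between the preOC libraries. The 10 neutrophil markers summed to 588.2, 426.5 and 580.4 CPM in Bap1LysM preOC 4 to 6, against 67.9 to 190.4 CPM in the other 8 preOC libraries, with 9 of 10 at a mean above 1 CPM in both genotypes and Ly6g, which defines mature neutrophils, at 0.293 CPM or less. The 8 monocyte markers summed to 273.8, 236.7 and 316.1 CPM in the same 3 libraries and to 97.2 to 154.9 CPM in the other 8. The 5 mast cell markers were low but separated the genotypes without overlap, at 2.16 to 5.03 CPM in Bap1LysM and 0.565 to 1.601 CPM in Bap1flox preOCs. Nearly all of this was Kit (2.08 to 4.88 CPM against 0.565 to 1.497 CPM), and the other 4 had a mean below 1 CPM. Of the plasma cell markers Jchain also separated them, at 4.65 to 8.48 CPM against 0.0986 to 0.832 CPM. Sdc1 (mean 210.4 CPM against 287.3 CPM) and Prdm1 (105.8 CPM against 123.6 CPM) had lower means in Bap1LysM preOCs, with overlapping ranges. Their part in the differences of Marco and Mertk was not tested. In Bap1LysM preOC 1 and 2, where neutrophil markers were at 167.7 and 190.4 CPM and monocyte markers at 97.2 and 133.5 CPM, Marco was at 62.8 and 37.2 CPM, above its level in all Bap1flox preOC libraries, and Mertk at 91.5 and 39.7 CPM, the second within its Bap1flox range.

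Siglec1 is induced by interferon, and a list of interferon response genes was therefore read beside it and Fcgr1. The summed level of the 20 genes was 2096, 1749 and 1884 CPM in Bap1flox preOC 1 to 3 and 502, 615 and 960.5 CPM in 4 to 6. In Bap1LysM preOCs it was 3774 and 1116 CPM in 1 and 2 and 371, 459.9 and 375 CPM in 4 to 6. The list was highest of all preOC libraries in Bap1LysM preOC 1, which was also the highest for Siglec1 and Fcgr1, and it was lowest in Bap1LysM preOC 4 to 6. Within Bap1flox preOC 1 to 3 the order was another, with Siglec1 highest in library 3 and the list highest in library 1. Siglec1 in Bap1LysM preOC 4 to 6 was above Siglec1 in Bap1flox preOC 4 to 6, whose interferon lists were higher, while Fcgr1 in the same Bap1LysM libraries, at 6.04 to 8.28 CPM, overlapped the 5.83 to 10.2 CPM of Bap1flox preOC 4 to 6. None of the 20 genes was called between genotypes in preOCs with edgeR (median log2 fold change -0.04), beside 7.12% of all genes called higher and 8.68% lower. Without Bap1LysM preOC 1, 7 were called lower and 0 higher (median -0.98), beside 13.3% and 10.7% of all genes. The part of the interferon response in the levels of Siglec1 and Fcgr1 was not tested.

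**Figure D3:**
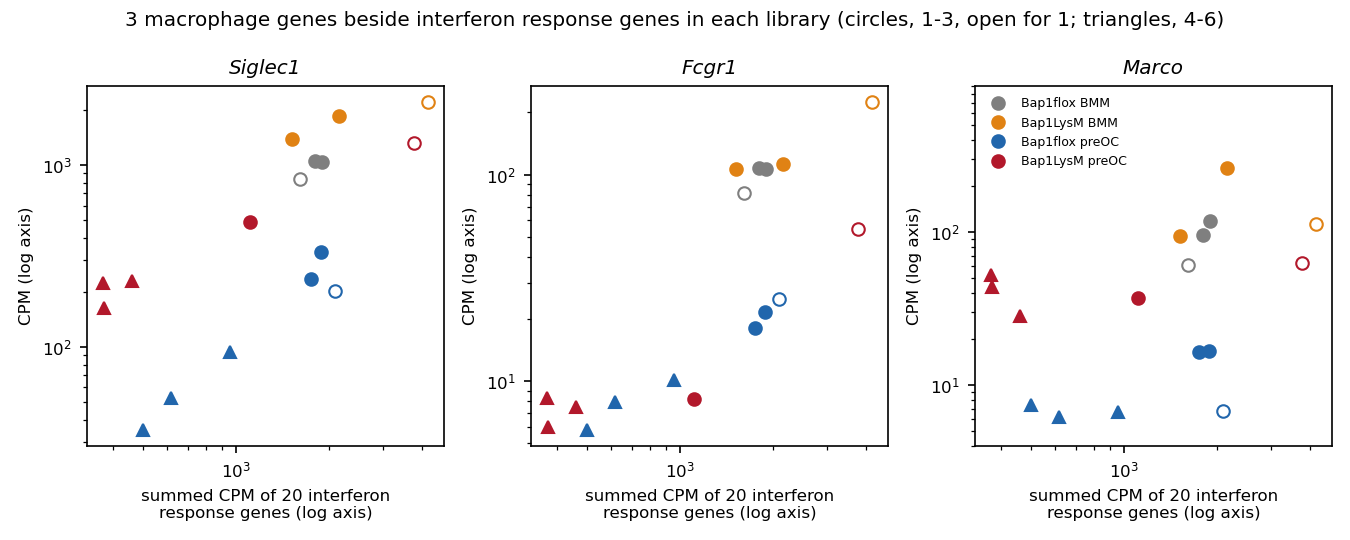
CPM of Siglec1, Fcgr1 and Marco against the summed CPM of 20 interferon response genes in the 17 libraries, both on log axes (circles, libraries 1 to 3, open for number 1; triangles, libraries 4 to 6). The Bap1flox preOC triangles lie at 502 to 960.5 CPM of the interferon list and 35.2 to 93.7 CPM of Siglec1, below the circles of the same genotype, while Marco in Bap1LysM preOCs stays between 28.2 and 62.8 CPM from the lowest to the highest interferon level.

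In BMMs, without RANKL, Mrc1 was the only member called between genotypes, and it was lower in Bap1LysM cells. It was at 2151, 1892.5 and 1970.0 CPM in Bap1flox BMM 1 to 3 and at 1172, 1338 and 1522 CPM in Bap1LysM BMM 1 to 3, with no overlap. The log2 fold change was -0.56 (SE 0.12, edgeR adjusted p = 0.045), a 1.48-fold difference. With edgeR over 13028 genes, 0 of the 9 members tested were called higher and 1 lower, beside 1.31% and 4.01% of all genes. The call was close to the threshold: it was lost in 5 of the 6 fits without 1 library, at log2 fold changes of -0.66 to -0.50 over the 6, and without the library labelled Bap1LysM BMM 1 it was -0.50 (edgeR adjusted p = 0.081). Without that library 0 members were called, beside 0.478% of all genes called higher and 2.37% lower.

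Markers of other cells differed between the BMM groups too. The 8 monocyte markers, all at a mean above 1 CPM in both genotypes, summed to 783.1, 649.9 and 746.5 CPM in Bap1flox and to 307.2, 646 and 587 CPM in Bap1LysM BMMs. F13a1 made up most of this list in Bap1flox BMMs and most of its difference (460.5 to 564.7 CPM against 58.0 to 370.8 CPM), while the monocyte markers Ly6c2 (3.76 to 7.30 CPM against 10.2 to 16.0 CPM) and Plac8 (2.45 to 6.56 CPM against 8.42 to 15.6 CPM) were higher in every Bap1LysM BMM library. The megakaryocyte list, at 469.3 to 745.7 CPM against 252.4 to 370.5 CPM, was nearly all Pf4 (459 to 732.1 CPM against 245.8 to 362.1 CPM). The erythroid list was at or below 4.41 CPM in each BMM library, most of it Epor in Bap1flox cells. Of the plasma cell markers Sdc1 and Prdm1 were lower, and Jchain, at 0.258 to 0.819 CPM against 3.02 to 4.46 CPM, was higher in every Bap1LysM BMM library. The 10 stromal markers, at 582.4, 2768.3 and 3149.1 CPM in Bap1flox and 421.5, 1163.3 and 1457.8 CPM in Bap1LysM BMMs, overlapped between genotypes and were lowest in the libraries numbered 1. Their part in the BMM differences was not tested.

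Siglec1, Msr1 and Cd14 were not called in BMMs with edgeR, at an adjusted p just above the threshold. Of all 13028 genes tested there, 3416 had an unadjusted edgeR p under 0.05. Siglec1 was at 840.0, 1043.5 and 1053 CPM in Bap1flox and 2214, 1398 and 1858 CPM in Bap1LysM BMMs (log2 fold change 0.93, SE 0.21, edgeR adjusted p = 0.053). The interferon response list was highest in Bap1LysM BMM 1 (4188 CPM), also the highest BMM library for Siglec1. The median log2 fold change of this list was 0.47, and 0.01 without that library, and its part in Siglec1 was not tested. Msr1 was at 152.7, 138.4 and 118.3 CPM in Bap1flox and 316.4, 260.6 and 175.9 CPM in Bap1LysM BMMs (log2 fold change 0.90, SE 0.23, edgeR adjusted p = 0.069). Cd14 was at 157.9, 153.5 and 167.1 CPM in Bap1flox and 122.6, 111.2 and 123.2 CPM in Bap1LysM BMMs (log2 fold change -0.40, SE 0.09, edgeR adjusted p = 0.053). With the replicate number as a block all 3 were called beside Mrc1: Siglec1 at 0.90 (edgeR adjusted p = 0.038), Msr1 at 0.86 (edgeR adjusted p = 0.013) and Cd14 at -0.41 (edgeR adjusted p = 0.024). In that fit 5.47% of all genes were called higher and 10.7% lower. Without Bap1LysM BMM 1 and with no block, Siglec1 was at 0.72 (edgeR adjusted p = 0.082), Msr1 at 0.66 (edgeR adjusted p = 0.11) and Cd14 at -0.46 (edgeR adjusted p = 0.065).

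Marco, called in preOCs, was not called in BMMs, where it was at 60.7, 117.8 and 95.9 CPM in Bap1flox and 112.6, 93.7 and 261 CPM in Bap1LysM cells (log2 fold change 0.79, SE 0.42, edgeR adjusted p = 0.28). The Marco estimate ran from 0.20 without Bap1LysM BMM 3, its highest library, to 1.07 without Bap1LysM BMM 2. Mertk was at 208.9, 192.1 and 194.1 CPM and at 261.2, 186 and 226.8 CPM (log2 fold change 0.20, SE 0.15, edgeR adjusted p = 0.41). Fcgr1 was at 81.5, 106.3 and 107.7 CPM and at 223.6, 106.2 and 112.9 CPM, where the high library was again the one labelled Bap1LysM BMM 1, whose interferon response list stood at 4188 CPM against 1523 to 2158 CPM in the other 5 BMM libraries. The BMM groups of these 3 genes overlapped, and the log2 fold changes of Adgre1 (0.16) and Cd68 (0.11) were smaller than those of any of them. Without Bap1LysM BMM 1 the estimates were 0.95 for Marco (edgeR adjusted p = 0.27), 0.05 for Mertk (edgeR adjusted p = 0.83), 0.14 for Fcgr1 (edgeR adjusted p = 0.57), 0.01 for Adgre1 and 0.04 for Cd68.

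**Figure D4:**
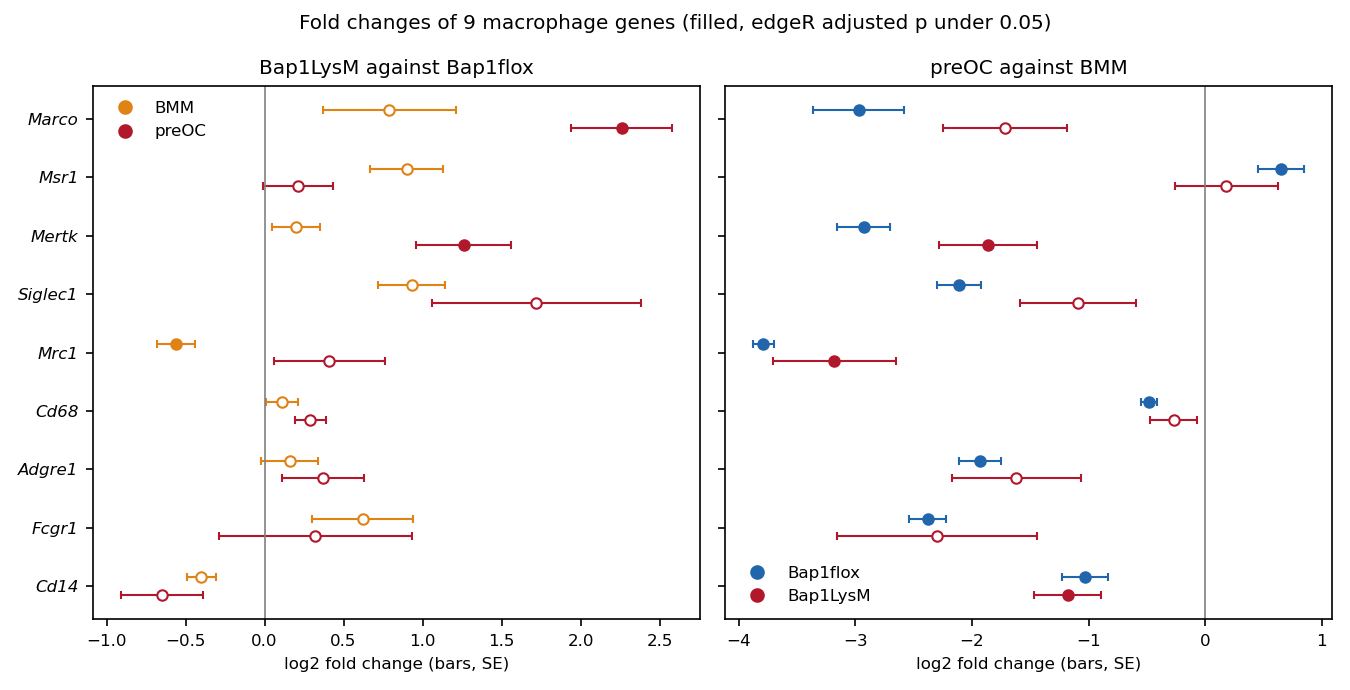
Log2 fold changes of 9 genes between genotypes (left) and between preOCs and BMMs (right), with SE as bars and filled points for an edgeR adjusted p under 0.05. Marco (2.26) and Mertk (1.26) are the filled points of the preOC genotype comparison, Mrc1 (-0.56) that of the BMM comparison, and all 9 points are filled for RANKL in Bap1flox cells.

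RANKL lowered most of these genes. In Bap1flox cells, compared over libraries 1 to 3 of both states, all 9 members tested were called, 8 lower and 1 higher, beside 32.9% of 13415 genes called lower and 31.7% called higher with edgeR, so that a call as such was common here. The median log2 fold change was -2.11 for the 9 members and -0.05 for all genes tested. Markers of other cells also moved with RANKL. The monocyte list was at 649.9 to 783.1 CPM in Bap1flox BMMs and 106.8 to 121.0 CPM in Bap1flox preOC 1 to 3. For the megakaryocyte list, again nearly all Pf4, the same groups were at 469.3 to 745.7 CPM and 49.1 to 64.0 CPM. The dendritic cell list rose, with 25.7 to 32.7 CPM in the BMMs and 45.5 to 75.8 CPM in these preOCs. Of 6 plasma cell markers Sdc1 (from a mean of 28.6 to 287.3 CPM) and Prdm1 (from 17.2 to 123.6 CPM) were higher in every Bap1flox preOC library than in every Bap1flox BMM library. The other 4 had a mean below 1 CPM in both states, and these preOC means include libraries 4 to 6. Their part in the members' levels was not tested.

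Mrc1 fell furthest, from 1892.5 to 2151 CPM in BMMs to 152.2, 169.4 and 174.2 CPM in preOCs (log2 fold change -3.79, SE 0.09, edgeR adjusted p = 1.7e-06), a 13.9-fold difference. Of the other receptors for particles and dying cells, Marco fell by 2.97 on the log2 scale (SE 0.39, edgeR adjusted p = 0.00049) from 60.7 to 117.8 CPM down to 6.78, 16.5 and 16.7 CPM. Mertk fell by 2.93 (SE 0.23, edgeR adjusted p = 5.2e-05) from 192.1 to 208.9 CPM down to 18.9, 35.7 and 34.8 CPM. The groups did not overlap for any of the 3, and the differences were 7.62-fold or more.

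Fcgr1 fell by 2.38 on the log2 scale (SE 0.16, edgeR adjusted p = 3.1e-05) to 24.9, 18.04 and 21.7 CPM. Siglec1 fell by 2.11 (SE 0.19, edgeR adjusted p = 9.7e-05) to 204.4, 235.8 and 334.3 CPM. The interferon response list, at 1610.5 to 1901 CPM in Bap1flox BMMs and 1749 to 2096 CPM in Bap1flox preOC 1 to 3, overlapped between the states. Adgre1 fell by 1.93 (SE 0.18, edgeR adjusted p = 0.00011) from 1524 to 2045 CPM down to 615.4, 457.8 and 448 CPM. Cd14 fell by 1.03 (SE 0.20, edgeR adjusted p = 0.0037). Cd68 changed least of the 8, by a fall of 0.48 (SE 0.07, edgeR adjusted p = 0.00071), from 1541 to 1740.0 CPM down to 1260.3, 1369.8 and 1383 CPM.

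Msr1 went the other way. It rose from 152.7, 138.4 and 118.3 CPM in Bap1flox BMMs to 318.9, 206.5 and 206.1 CPM in preOCs, with no overlap (log2 fold change 0.65, SE 0.20, edgeR adjusted p = 0.023). The call was lost without Bap1flox BMM 2 (0.68, edgeR adjusted p = 0.052) or Bap1flox BMM 3 (0.58, edgeR adjusted p = 0.066). Marco and Msr1, both of the class A scavenger receptors, were thus called in opposite directions with RANKL in Bap1flox cells.

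In Bap1LysM cells the same comparison rested on 3 BMM and 2 preOC libraries, and 3 of 9 members were called lower and 0 higher, beside 8.2% of 12998 genes called lower and 11.4% called higher with edgeR. Mrc1 fell by 3.18 on the log2 scale (SE 0.53, edgeR adjusted p = 0.018), Mertk by 1.86 (SE 0.42, edgeR adjusted p = 0.035) and Cd14 by 1.18 (SE 0.29, edgeR adjusted p = 0.042). These calls depended on single libraries. Of the 5 fits without 1 library, Mertk (-2.65 to -1.33) and Cd14 (-1.72 to -0.77) were called only in the fit without Bap1LysM preOC 1, in which 1 preOC library remains and its spread is taken to be that of the BMMs. Mrc1 (-4.23 to -2.56) was called in 3 of them and lost without Bap1LysM BMM 2 (edgeR adjusted p = 0.066) or Bap1LysM BMM 3 (edgeR adjusted p = 0.073). With the replicate number as a block 7 of the 9 were called lower, beside 10.1% of all genes called lower and 11% higher: Mrc1 (-3.31, edgeR adjusted p = 0.010), Fcgr1 (-2.94, edgeR adjusted p = 0.010), Mertk (-1.97, edgeR adjusted p = 0.0063), Adgre1 (-1.87, edgeR adjusted p = 0.023), Siglec1 (-1.23, edgeR adjusted p = 0.033), Cd14 (-1.23, edgeR adjusted p = 0.016) and Marco (-1.19, edgeR adjusted p = 0.012). The preOC libraries lay far apart: Bap1LysM preOC 1 and 2 were at 981.7 and 295.8 CPM for Adgre1, 1318 and 488.6 CPM for Siglec1 and 54.7 and 8.22 CPM for Fcgr1. These 3 genes had log2 fold changes of -1.62 (SE 0.55, edgeR adjusted p = 0.09), -1.09 (SE 0.50, edgeR adjusted p = 0.17) and -2.30 (SE 0.86, edgeR adjusted p = 0.11). Osteoclast markers summed to 5917 CPM in Bap1LysM preOC 1, the lowest of the preOC libraries, and to 17563 CPM in Bap1LysM preOC 2, the highest. Monocyte markers were at 307.2 to 646 CPM in Bap1LysM BMMs and at 97.2 and 133.5 CPM in these 2 preOC libraries. Megakaryocyte markers were at 252.4 to 370.5 CPM against 58.0 and 31.4 CPM, and dendritic cell markers at 13.6 to 61.2 CPM against 137.2 and 108.1 CPM. The part of all these markers in the members' levels was not tested.

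Without both libraries numbered 1, in which Lyz2 was at 42.8 and 75.1% of the Bap1flox mean, 7 of the 9 members were called lower with RANKL in Bap1LysM cells, from 2 BMM libraries and 1 preOC library, whose spread is taken to be that of the BMMs. Of all genes 16.8% were called lower and 15.8% higher in that fit. Mrc1 was at -4.29 (edgeR adjusted p = 0.00011), Fcgr1 at -3.85 (edgeR adjusted p = 6.9e-05), Adgre1 at -2.66 (edgeR adjusted p = 0.00048), Mertk at -2.50 (edgeR adjusted p = 0.00036), Marco at -2.38 (edgeR adjusted p = 0.017), Siglec1 at -1.86 (edgeR adjusted p = 0.0027) and Cd14 at -1.67 (edgeR adjusted p = 0.00092). Cd68 was at -0.27 (SE 0.20, edgeR adjusted p = 0.37) with and -0.33 (edgeR adjusted p = 0.30) without these libraries. Msr1, which rose in Bap1flox cells, was at 0.18 (SE 0.44, edgeR adjusted p = 0.80) with and -0.38 (edgeR adjusted p = 0.26) without these libraries.

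Whether the RANKL response differed between genotypes was tested by an interaction term over the 11 libraries numbered 1 to 3. With edgeR 0 of 9 members and 0 of 13637 genes were called, so that 0% were called higher and 0% lower. At an unadjusted p under 0.05 there were 1718 genes but none of the members, and DESeq2 called 117 genes and limma with voom weights 0, again with no member. The estimates for Marco (1.24, SE 0.68, edgeR adjusted p = 0.48), Mertk (1.06, SE 0.49, edgeR adjusted p = 0.40) and Siglec1 (1.01, SE 0.53, edgeR adjusted p = 0.47) were above 0. With 1 library left out they ran from 0.72 to 1.82 for Marco, 0.24 to 1.58 for Mertk and 0.02 to 1.59 for Siglec1, each lowest without Bap1LysM preOC 1. The highest came without Bap1LysM BMM 3 for Marco and without Bap1LysM preOC 2 for Mertk and Siglec1. Without both libraries numbered 1 they were 0.56, 0.40 and 0.23. Cd14, Cd68 and Msr1 had estimates of -0.16, 0.20 and -0.48 over all these libraries and -0.67, 0.12 and -1.06 without both numbered 1. Adgre1, Mrc1 and Fcgr1 had estimates of 0.31, 0.61 and 0.08 with and -0.76, -0.53 and -1.50 without them. A larger genotype difference after RANKL than before it was therefore not shown for any member. Without Bap1LysM preOC 2, Mrc1 was called (1.21, edgeR adjusted p = 0.039), in a fit whose only Bap1LysM preOC library was number 1 and whose spread comes from the other groups.

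Timd4 (ENSMUSG00000055546, GRCm38 chr11:46810800-46844332, plus strand), a phosphatidylserine receptor of macrophages that live in tissues such as the peritoneum, had 27 counts in all 17 libraries together. It was at 0 counts in 10 libraries, which allows up to 0.0536 to 0.0755 CPM at 3 counts of each total (counting error only), and its highest value was 7 counts, or 0.155 CPM, in Bap1LysM BMM 2. No difference was detectable at this depth.

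Genes that work beside the members changed in both directions in preOCs. Of 17 tested genes for the uptake of apoptotic cells, 2 were called higher and 3 lower in Bap1LysM preOCs, where 7.12% of all genes were called higher and 8.68% lower. Without Bap1LysM preOC 1 they were 2 and 6, beside 10.7% and 13.3% of all genes. The MERTK ligands went apart: Gas6 was higher (log2 fold change 0.99, SE 0.21, edgeR adjusted p = 0.0094), and Pros1, which encodes protein S, was lower (-1.21, SE 0.16, edgeR adjusted p = 0.00091). Abca1, the cholesterol exporter that is induced when macrophages digest such cells, was higher (0.86, SE 0.18, edgeR adjusted p = 0.0085). The median of this list was -0.22, against -0.01 for all genes tested.

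Among 20 tested C-type lectins and Siglecs, 7 were called higher and 1 lower in Bap1LysM preOCs, beside the same 7.12% and 8.68% of all genes, with a median log2 fold change of 0.28. The largest were the galactose-type lectins Mgl2 (2.80, SE 0.61, edgeR adjusted p = 0.010) and Clec10a (2.01, SE 0.52, edgeR adjusted p = 0.023) and Clec4n, which encodes Dectin-2 (1.75, SE 0.42, edgeR adjusted p = 0.017). Mgl2 and Clec10a are close paralogs, and reads that align to both were not counted. Of 14 tested markers of tissue-resident macrophages, 4 were called higher and 0 lower, with a median of 0.65. The largest were Mgl2, the endothelin receptor Ednrb (1.80, SE 0.46, edgeR adjusted p = 0.023) and the adhesion molecule Vcam1 (1.62, SE 0.31, edgeR adjusted p = 0.0055). Mgl2 is also counted among the lectins, and Gas6, another of these markers, among the genes of apoptotic cell uptake. The lists were chosen with earlier results of these data known, so their counts are a description. Without Bap1LysM preOC 1, where 10.7% of all genes were called higher and 13.3% lower, 7 lectins and Siglecs were called higher and 2 lower, and 6 markers of tissue-resident macrophages were called higher and 1 lower. Mgl2 (3.09), Clec10a (2.30), Clec4n (1.77), Ednrb (1.89) and Vcam1 (1.75) were called there as well, as were Gas6 (0.93), Pros1 (-1.28) and Abca1 (0.79).

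The remaining lists held 0 to 2 calls each in preOCs, beside the 7.12% of all genes called higher and 8.68% lower. Of 12 other scavenger receptors 1 was called higher, the stabilin-1 gene Stab1 (0.59, SE 0.18, edgeR adjusted p = 0.044), of 17 macrophage transcription factors 1, the retinoid X receptor gene Rxra (1.04, SE 0.19, edgeR adjusted p = 0.0048), and of 10 genes for the recognition of lipopolysaccharide 1 was higher, the lipopolysaccharide-binding protein gene Lbp (1.33, SE 0.37, edgeR adjusted p = 0.030), and 1 lower, the TLR4 adaptor gene Tirap (-0.81, SE 0.12, edgeR adjusted p = 0.0015). None of 6 Fc receptors and none of 4 adhesion receptors related to Adgre1 was called with edgeR. Without Bap1LysM preOC 1, where 10.7% of all genes were called higher and 13.3% lower, the calls were 1 higher and 2 lower among the scavenger receptors, Stab1 no longer among them (0.52, edgeR adjusted p = 0.066), 2 higher and 2 lower among the transcription factors, 2 higher and 1 lower in lipopolysaccharide recognition, 1 Fc receptor lower and 2 adhesion receptors higher. In BMMs the same lists held 1 call higher, among the transcription factors, and calls lower for 1 gene of apoptotic cell uptake, 2 Fc receptors, 1 gene of lipopolysaccharide recognition, 1 adhesion receptor and 3 markers of tissue-resident macrophages, beside 1.31% of all genes called higher and 4.01% lower. Without Bap1LysM BMM 1, where 0.478% of all genes were called higher and 2.37% lower, these lists held 2 calls higher, 1 adhesion receptor and 1 marker of tissue-resident macrophages, and calls lower for 1 gene of apoptotic cell uptake, 2 Fc receptors, 2 lectins or Siglecs and 1 transcription factor.

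With RANKL in Bap1flox cells, where 32.9% of all genes were called lower and 31.7% higher, more genes were called lower than higher in most of these lists. All 6 Fc receptors were called lower (median log2 fold change -3.07), as were 10 of 12 scavenger receptors (median -1.76), 12 of 18 genes of apoptotic cell uptake (median -0.94), 9 of 13 markers of tissue-resident macrophages (median -2.63) and 7 of 10 genes of lipopolysaccharide recognition (median -0.85). The lectins and Siglecs were mixed, with 10 of 20 lower and 4 higher, and so were the transcription factors, with 9 of 17 lower and 5 higher. Of the 4 adhesion receptors related to Adgre1, which itself fell, 2 were called higher and 0 lower (median 0.24). Of the interferon response genes 9 were lower and 7 higher, with a median of -0.17.

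The genes whose log2 CPM followed each member most closely over the 17 libraries, of 13731 compared, are given as a description, since the libraries share groups and sets. Mertk ran most closely with Slc16a9 (Pearson r = 0.991) and Adap2 (0.980), Marco with Ntng2 (0.951) and Aox1 (0.946), and Siglec1 with Atf5 (0.967) and Cdkn1a (0.966). Mrc1 ran with Fcgr3 (0.987) and Cmtm6 (0.986), Fcgr1 with Xylt2 (0.991) and Trem2 (0.986), and Adgre1 with Dennd1a (0.991) and Themis2 (0.988). For Cd14 they were Tmem256 (0.984) and Chst14 (0.978), for Cd68 Optn (0.941) and Cmklr1 (0.893), and for Msr1 Erap1 (0.933) and Setdb2 (0.911). No member was among the closest genes of another.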

How the data were processed

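The authors deposited 1 table per library with counts, CPM and RPKM per gene. Per the study's methods and the submitters' processing notes, reads were aligned with STAR 2.5.1a to Ensembl release 76 (GRCm38) and uniquely aligned, unambiguous reads were counted with featureCounts 1.4.6-p5; whether strand was used is not given in the sources used here. The deposited CPM and RPKM values are the count over the library total (for RPKM also over the gene length), with no further scaling, and serve here as levels. No member shares exon bases with another annotated gene.

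Counts were tested in R 4.3.3 with edgeR 4.0.16 (TMM factors, glmQLFTest, Benjamini-Hochberg adjustment over all genes tested, threshold 0.05), after 355 ribosomal RNA genes and genes with a CPM above 1 in fewer than 4 (preOCs) or 2 (other comparisons) libraries had been left out. The standard error is the log2 fold change over the root of F. The scripts were tested on simulated data. limma 3.58.1 (voomWithQualityWeights, the study's test), DESeq2 1.42.0, other scalings, no filter, a replicate block, a library set term and leaving out libraries were the alternatives. The members and lists were chosen with earlier results of these data known. Named list genes are at most 3 per list, those called in preOCs with the largest change; the interferon list names none. Likeness is Pearson's r of log2 CPM with a prior count of 2.

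Deviations from the group means of same-numbered libraries correlated at 0.31 to 0.50 between BMM genotypes and 0.23 to 0.37 between Bap1flox BMMs and preOCs. Between genotypes in preOC libraries 1 to 3 they correlated at 0.36 and 0.43. Libraries of different numbers gave -0.41 to 0.23, -0.38 to 0.23 and -0.43 to 0.26. Over all preOC libraries same numbers gave 0.36 to 0.71, but different numbers of 1 set reached 0.67, so that range does not separate pairing from the set. The numbers were taken to pair libraries 1 to 3, and blocked values are given beside results whose call they change. The fits reported first carry no block. Within preOC libraries 4 to 6 the correlations were -0.16 to 0.03, so there the number marks the library set only.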

Additional observations from a re-analysis of the deposited data

Results flagged for a closer look

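In 7 of the 20 preOC groups of libraries examined (10 genes in both genotypes), 1 library's CPM stood apart from the rest by Dixon's criterion, where chance alone gives about 1 in 20. 4 of the 7 were the library labelled Bap1LysM preOC 1: Siglec1 at 1318 CPM, Msr1 at 421.6 CPM, Fcgr1 at 54.7 CPM and Cd14 at 71.3 CPM, each above the other 4 Bap1LysM preOC libraries. Mertk was low in Bap1LysM preOC 2, at 39.7 CPM. In Bap1flox preOCs, Cd14 was high in library 1 at 120.5 CPM and Mrc1 in library 6 at 341 CPM. Marco, Cd68 and Adgre1 had no such library.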

How the results depend on the processing

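The calls of Marco and Mertk in preOCs held under each alternative except libraries 1 to 3 alone, and those of the 8 members lowered by RANKL in Bap1flox cells held under each. The number of members called in preOCs, with all genes called in parentheses, was 2 (2043 of 12929). It became 6 with limma's voom weights (7099), 5 with a replicate block (4236) and 5 with a set term (4349). It was 0 in libraries 1 to 3 alone (0 of 13129) and 4 in libraries 4 to 6 alone (4304 of 12728). Under alternatives added after the data were seen it was 5 with the set term and Bap1LysM preOC 1 left out (5024 of 12881). It was 5 with the set term and voom weights (6225 of 12929), and 2 to 3 with 1 library left out (1071 to 3085). In BMMs it was 1 (693 of 13028) and became 4 with voom weights (1772), 4 with DESeq2 (2065) and 4 with the replicate block (2107). It was 2 with upper-quartile factors (791), 3 with no filter (775 of 24818) and 0 to 2 with 1 library left out (4 to 756). For RANKL in Bap1LysM cells it was 3 and became 6 with DESeq2, 6 with no filter, 7 with the replicate block, 7 with all preOC libraries, 7 without both libraries numbered 1 and 0 to 6 with 1 library left out. The interaction gave 0, and 0 to 1 with 1 library left out. For RANKL in Bap1flox cells the counts were 8 to 9, and 8662 of 13415 genes were called in the fit reported first. For RANKL in Bap1LysM cells that fit called 2550 of 12998 genes. There DESeq2 called 3996, no filter 3140 of 24256, the replicate block 2750 and all preOC libraries 5113 of 13297. The replicate block changed no call for RANKL in Bap1flox cells or for the interaction. The causes were not tested.

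Signs that changed were those of estimates with no call in the fit over all libraries of their comparison. In preOCs Fcgr1 was -0.56 with voom weights, -0.08 in libraries 4 to 6 and -0.47 with the set term without Bap1LysM preOC 1, where Msr1 was -0.10 and Adgre1 0. With 1 library left out Fcgr1 ran from -0.89 to 0.53 and Msr1 from -0.04 to 0.33. For RANKL in Bap1LysM cells Msr1 was -0.16 with the replicate block, -0.38 without both libraries numbered 1, and -0.63 to 0.71 with 1 library left out. For the interaction, without both libraries numbered 1, Adgre1 was -0.76, Mrc1 -0.53 and Fcgr1 -1.50. There Fcgr1 was also -0.08 with voom weights, -0.10 with the block and -0.29 with all preOC libraries, and Cd14 was 0.02 with voom weights. With 1 library left out the interaction ran from -0.91 to 0.96 for Adgre1, -0.47 to 1.21 for Mrc1 (called at 1.21 without Bap1LysM preOC 2), -1.31 to 0.05 for Msr1, -1.98 to 0.89 for Fcgr1 and -0.73 to 0.24 for Cd14.

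Over all genes, 2043 were called in preOCs, and 7099 with voom weights, 4236 with the block, 4349 with the set term, 5024 and 6225 under the added alternatives, 4304 in libraries 4 to 6, 0 in libraries 1 to 3 and 1071 to 3085 with 1 library left out. Upper-quartile factors moved the preOC split from 921 higher and 1122 lower to 699 and 1403. In BMMs 693 were called, and 1772 with voom weights, 2065 with DESeq2, 2107 with the block and 4 to 756 with 1 library left out. RANKL in Bap1LysM cells gave 2550, and 1667 with voom weights, 3996 with DESeq2, 5113 with all preOC libraries, 4112 without both libraries numbered 1 and 63 to 3336 with 1 library left out. The interaction gave 0, and 117 with DESeq2, 288 with all preOC libraries and 0 to 119 with 1 library left out. Depth allowed no comparison of Timd4, and groups held 2 to 6 libraries, or 1 preOC library where Bap1LysM preOC 1 or 2 was left out of a RANKL or interaction fit.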
